A study of Gallus gallus with 66 samples.

Results

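The change in gene expression between 24 and 72 h of oleate culture was followed in preadipocytes, the fibroblast-like precursors of fat cells, from a lean and a fat chicken line. The comparison took all arrays of the oleate-treated groups at 24 h and at 72 h, with the line kept as a factor, so that 6 arrays at 72 h stood against 6 at 24 h. These were 12 of the 66 arrays of the study, and no measured value was used to choose them. The 4 groups were lean oleate 24 h, lean oleate 72 h, fat oleate 24 h and fat oleate 72 h, each with 3 arrays. All cells came from abdominal fat of male birds aged 10 days, taken from 15 birds of each line and pooled before collagenase digestion. The floating adipocytes were spun off, red cells were lysed, and the attached cells were passaged once and grown to 95% confluence, which was named 0 h. Oleate was then added at 160 µg/ml, and the control cultures of each line went on without it. Each line is thus represented by a single pool of birds, and the labels call the arrays biological replicates without saying whether these were separate cultures. All p-values below therefore measure the spread between arrays only.

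Oleate is the salt of a monounsaturated fatty acid that cells take up, bind to carrier proteins and store as triglyceride in lipid droplets. Fatty acids are known to induce adipogenesis of chicken preadipocytes, and in birds the liver, not adipose tissue, makes most of the fatty acid that fat cells store. Preadipocytes that become adipocytes are known to gain fatty acid carriers and droplet proteins, while Wnt signals are known from mammals to hold the precursor state.

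Each array measured 38535 probe sets on a scale read as log2, of which 22060 were bright enough to be tested and 10176 genes had a tested probe set. Over the tested probe sets, arrays of the same oleate group correlated with r from 0.953 to 0.973 (12 pairs, median 0.968), and arrays of the same line at the other hour from 0.949 to 0.974 (18 pairs, median 0.968). By this measure, arrays of different hours were about as alike as replicates. The median difference was −0.002 (72 h minus 24 h, log2), with a 5th percentile of −0.45 and a 95th percentile of 0.42. The middle of the distribution could hardly move, since the deposited arrays already shared nearly the same sorted values. None of the 96 control probe sets of the array passed the test (limma, adjusted over the 96).

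In a fit over all 66 arrays (limma, 22 group means, two-sided, Benjamini-Hochberg adjustment over 22060 probe sets), 4 probe sets changed from 24 to 72 h of oleate culture at an adjusted p under 0.05. This was 0.0181% of those tested, and all 4 fell. Without adjustment, 1431 (6.49%) had a p under 0.05. Counted as genes, 3 of 10176 fell (0.0295%). The named genes were TBCK, a kinase-like protein tied to growth signalling, PTGR1, an oxidoreductase that inactivates prostaglandins and leukotrienes, and PTGDS, a lipocalin that makes prostaglandin D. The remaining probe set has no gene name in the annotation.

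TBCK read 7.21, 7.41 and 7.99 in the lean line at 24 h and 6.09, 6.19 and 6.38 at 72 h. Fat-line arrays gave 7.94, 7.93 and 6.88 and then 7.29, 7.04 and 6.29. The lean arrays of the hours did not overlap, while the fat arrays did, through replicate 3, the lowest at both hours. How many of all genes have hours apart within 1 line, 3 arrays against 3, was not counted. Such statements, here and below, only describe the values. TBCK fell by 1.01 on the log2 scale (SE 0.20, adjusted p = 0.0296), and its 3 tested probe sets gave differences from −1.01 to −0.38. PTGR1 had 9.29, 9.12 and 9.74 at 24 h and 8.62, 8.57 and 8.87 at 72 h in the lean line. Its fat-line values were 9.62, 10.0 and 9.28 at 24 h and 9.13, 9.30 and 8.75 at 72 h. Within each line the hours overlapped in the fat line only, and PTGR1 fell by 0.63 (SE 0.12, adjusted p = 0.0296).

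PTGDS fell by 2.55 (SE 0.50, adjusted p = 0.0296), from 4.59, 5.44 and 5.47 to 2.26, 3.22 and 1.61 in the lean line and from 5.22, 5.49 and 3.55 to 4.01, 1.73 and 1.61 in the fat line. The size of this fall depends on the floor set for dim values (1.61), which 2 of the 72 h arrays reached. The unnamed probe set fell by 0.51 (SE 0.10, adjusted p = 0.0296), with means of 9.28 at 24 h and 8.78 at 72 h. PTGDS and the unnamed probe set lie outside the rule for named genes and were named after their values were seen. All 4 probe sets fell in each of the 6 pairs of arrays that share a line and a replicate number. Of the 12 fits that each left out 1 array, TBCK passed in 4 (adjusted p 0.00508 to 0.359), PTGR1 in 5 (0.00587 to 0.369), and PTGDS and the unnamed probe set in 3 each (0.00783 to 0.311 and 0.0172 to 0.359). In control culture over the same hours the differences were −0.63 for TBCK, −0.29 for PTGR1, −2.19 for PTGDS and −0.34 for the unnamed probe set, with adjusted p of 0.107 to 0.46 in the fit over all arrays (limma) and of 0.013, 0.057, 0.00332 and 0.044 with same-numbered arrays paired. All 6 control pairs were lower at 72 h in each of these, and the oleate change minus the control change passed for none.

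Within a line, deviations from the group means correlated between same-numbered oleate arrays of 24 h and 72 h (r from 0.207 to 0.358, 6 pairs). Each such pair is called a culture series here, as a name only. The labels do not say what a replicate number links across the hours. Whether a pair came from 1 culture was not tested. When the difference was taken within the 6 series (limma on the 12 arrays, line and replicate number as a fixed block), 505 of 22060 probe sets passed, or 2.29%, with 225 higher (1.02%) and 280 lower (1.27%) at 72 h. The median standard error went from 0.185 in the fit over all arrays to 0.126. Among genes, each counted once by its brightest probe set, 296 of 10176 passed (2.91%): 127 rose (1.25%) and 169 fell (1.66%). The median change was 0.45 among genes that rose (range 0.17 to 1.79) and −0.48 among genes that fell (range −2.55 to −0.16), and 13 and 21 of them changed 2-fold or more. A call within series favours probe sets whose 6 differences agree, and 464 of the 505 moved one way in all of them, which is a description of the calls. Of all 22060 tested probe sets, 2076 (9.41%) moved one way in all 6. With the series as a random effect over all arrays (correlation 0.188), 28 probe sets passed (0.127%). "Rose" and "fell" below refer to the fit within series, and the number of calls depended strongly on it: leaving out 1 series gave 52 (lean replicate 3), 86 (fat replicate 2), 185 (lean replicate 2), 276 (fat replicate 1), 321 (lean replicate 1) or 893 (fat replicate 3) probe sets, and 2 were left without trended and robust moderation.

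The 12 largest falls and the 12 largest rises among genes that moved one way in all 6 series, had a full gene symbol and had no array at the floor were chosen from this fit after its values were seen. Of these 24 genes, 11 passed in each of the 6 fits that left out 1 series: the falls of APOA1, C2orf40, KRT24, IGFBP2, FABP4, NPR3, ID2 and RELN, and the rises of TAAR1, IGF1 and DIO2. Without trended and robust moderation, APOA1 alone of these 11 still passed within series (limma, adjusted p = 0.013). The others then had adjusted p of 0.0555 to 0.152. In the fit over all 66 arrays none of the 24 passed (adjusted p 0.113 to 0.901), and 19 had an unadjusted p under 0.05. With the series as a random effect, 3 of the 24 passed. The hours overlapped in all 24 when all 6 arrays of an hour were considered, since arrays of an hour spread widely. Over all genes, the ranges of the hours were apart in 53 of 10176 (0.521%), again with all 6 arrays of an hour and not within 1 line.

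APOA1, the main protein of high-density lipoprotein, had the largest of these falls. In the lean line it read 9.19, 11.17 and 10.73 at 24 h and 6.52, 8.76 and 8.44 at 72 h, while fat arrays had 8.99, 10.95 and 8.88 and then 6.81, 9.22 and 6.73. Every series fell by between 1.73 and 2.67, although the series themselves lay more than 2 log2 units apart. On average APOA1 fell by 2.24 (SE 0.08, adjusted p = 1.4e-06), and the second probe set of APOA1 gave −1.91. It passed under every setting of the fit within series that was tried, 13 in all. Among these, quantile normalization and median centring could hardly change a result, since the arrays already shared nearly the same sorted values.

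FABP4 and CD36, of the 20 tested fatty acid uptake and carrier genes, were among the falls. FABP4, the fatty acid-binding protein that abounds in adipocytes, read 10.50, 10.11 and 11.54 at 24 h and 8.76, 8.64 and 9.60 at 72 h in the lean line. Fat arrays had 11.21, 11.54 and 9.96 at the earlier and 10.59, 10.84 and 8.63 at the later hour, so the lean hours stood apart and the fat hours overlapped. FABP4 fell by 1.30 (SE 0.09, adjusted p = 0.000497), with −1.72 for lean and −0.88 for fat cells. CD36, the membrane protein that brings long-chain fatty acids into the cell, read 8.17, 7.53 and 7.80 at 24 h and 6.50, 6.88 and 5.82 at 72 h in the lean line. Its fat-line values went from 8.45, 7.94 and 6.46 to 8.32, 7.31 and 5.08, so that fat replicate 1 hardly differed between the hours. CD36 fell by 1.07 (SE 0.19, adjusted p = 0.0276), a call kept in 3 of the 6 fits without 1 series. Its 2 probe sets gave −1.07 and −0.85.

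Among the other falls, NPR3, the clearance receptor for natriuretic peptides, went from 8.53, 9.29 and 10.21 to 7.45, 7.92 and 8.47 in the lean line and from 9.63, 9.99 and 8.09 to 8.79, 8.96 and 6.90 in the fat line. It fell by 1.21 (SE 0.09, adjusted p = 0.000443), and no series fell by less than 0.84. IGFBP2, which binds insulin-like growth factors, went from 6.61, 8.40 and 8.85 to 4.88, 7.54 and 7.55 in the lean line and from 7.36, 8.14 and 7.09 to 6.10, 7.25 and 5.25 in the fat line. It fell by 1.31 (SE 0.14, adjusted p = 0.00285), with −1.30 for lean and −1.33 for fat cells. C2orf40, which encodes a secreted peptide precursor, fell by 1.69 (SE 0.20, adjusted p = 0.00539), from a mean of 5.68 to 3.99. RELN, a secreted glycoprotein of the extracellular matrix, fell by 1.16 (SE 0.12, adjusted p = 0.00245), from 8.04 to 6.88.

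ID2, a helix-loop-helix protein that blocks the DNA binding of its partners, went from 10.07, 9.95 and 10.93 to 8.62, 8.17 and 9.15 in the lean line, where the hours did not overlap. Fat arrays went from 11.04, 10.84 and 9.62 to 10.67, 9.42 and 9.35 and overlapped. ID2 fell by 1.18 (SE 0.14, adjusted p = 0.00619), and its 4 probe sets gave −1.27 to −0.67. KRT24, a keratin, differed most between series, from 4.70 to 9.31 at 24 h and from 3.08 to 7.75 at 72 h, but fell in each by 0.88 to 1.62. KRT24 fell by 1.39 (SE 0.11, adjusted p = 0.000497). The other 3 of the 12 falls were TSPAN8 (−1.43), a membrane tetraspanin, ADA (−1.13), the enzyme that deaminates adenosine, and PINLYP (−1.08), and these passed in 1, 5 and 4 of the 6 fits without 1 series.

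**Figure D1:**
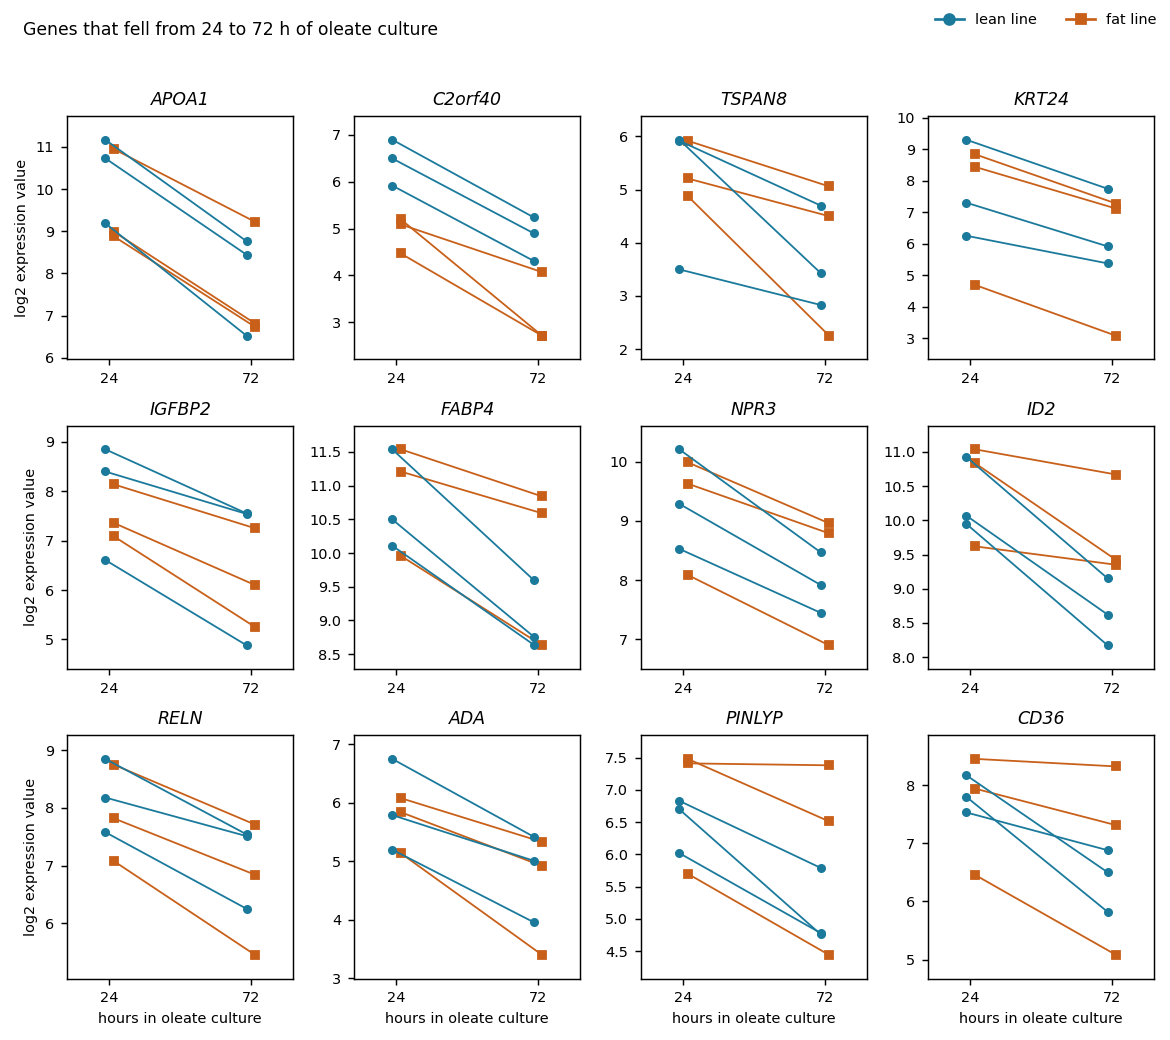
Log2 expression value (y axis) at 24 h and 72 h of oleate culture (x axis) of the 12 genes with the largest falls, 1 line per culture series (blue circles lean, orange squares fat, 3 series each). Every line slopes down, by 1.73 to 2.67 for APOA1, while the series of one gene start at different levels, from 4.70 to 9.31 for KRT24.

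Among the rises, TAAR1, a receptor for trace amines, had the smallest adjusted p. It read 6.50, 4.03 and 3.93 at 24 h and 7.78, 4.91 and 5.27 at 72 h in the lean line, whereas fat arrays had 5.08, 4.48 and 6.76 and then 7.25, 6.15 and 8.65. All 6 series rose, the fat series by more (mean 1.91) than the lean (1.17), and the mean rise was 1.54 (SE 0.12, adjusted p = 0.000497). The difference between the lines, 0.74, had a 95% interval of −1.71 to 3.20 in the fit over all arrays. That fit does not pair same-numbered arrays, so this interval also holds the wide spread between series. It does not describe how well the difference was determined within series, where no probe set passed for fat minus lean.

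IGF1, the growth factor that IGFBP2 binds, read 4.41, 4.06 and 4.25 at 24 h and 5.73, 5.64 and 5.38 at 72 h in the lean line. The fat line had 3.64, 3.32 and 4.74 at 24 h and 4.79, 4.24 and 5.98 at 72 h. Lean arrays of the hours did not overlap, and IGF1 rose by 1.22 (SE 0.17, adjusted p = 0.00811). IGF1 was dim: its 24 h values of 4.06, 3.64 and 3.32 lay below the array median of 4.17. A stricter filter on dim probe sets removed it. DIO2, the deiodinase that converts thyroxine into active thyroid hormone, went from 8.91, 8.15 and 7.28 to 9.31, 9.62 and 8.74 in the lean line and from 7.78, 7.13 and 7.97 to 8.65, 8.03 and 8.97 in the fat line. DIO2 rose by 1.02 (SE 0.13, adjusted p = 0.0077).

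The remaining 9 rises passed in 1 to 4 of the 6 fits without 1 series. VNN2, a vanin-family pantetheinase, rose the most, by 1.79 (SE 0.27, adjusted p = 0.036), from a mean of 9.86 to 11.64, with series rising by 0.76 to 2.66. IL8L1, a chemokine of the interleukin 8 family, rose by 1.10 (SE 0.18, adjusted p = 0.0226), and CCL20, another chemokine, by 1.01 (SE 0.19, adjusted p = 0.0298). Levels of both differed by several log2 units between series of 1 hour, IL8L1 from 6.72 to 10.72 and CCL20 from 4.60 to 8.23 at 24 h, with fat replicate 3 the highest at both hours. CMBL, a hydrolase, rose by 1.09, PVALB, a calcium-binding protein, by 1.07, PROK2, a secreted prokineticin, by 1.03, and CILP, a matrix protein of cartilage, by 0.94 (adjusted p 0.0206, 0.0395, 0.0324 and 0.0354). BGN and SPON2 are described with the matrix genes.

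**Figure D2:**
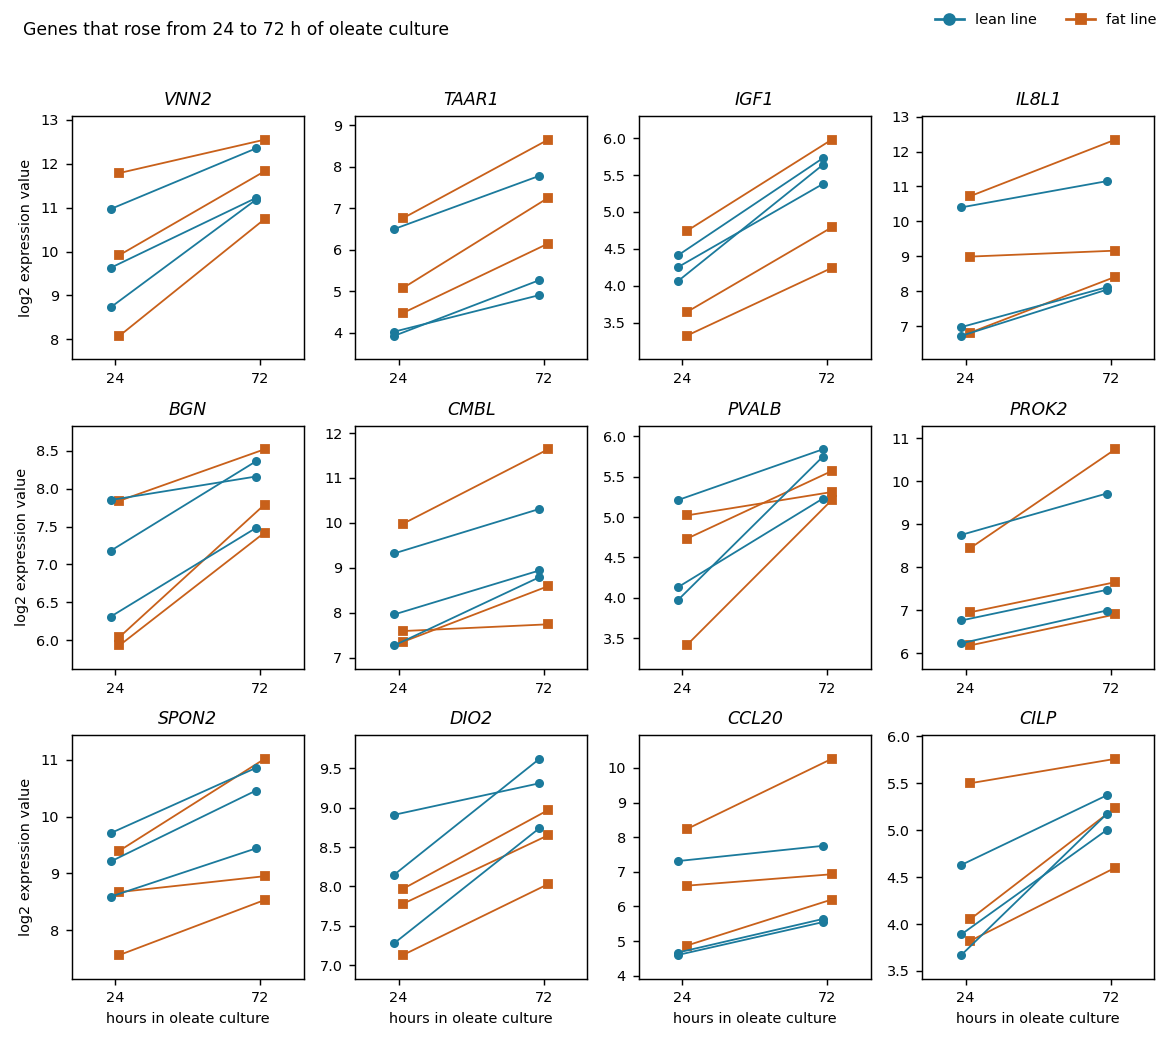
Log2 expression value (y axis) at 24 h and 72 h of oleate culture (x axis) of the 12 genes with the largest rises, 1 line per culture series (blue circles lean, orange squares fat, 3 series each). Every line slopes up, by 0.92 to 1.58 for IGF1 and by 0.17 to 1.62 for IL8L1.

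Genes were next described by lists of pathway and marker genes, as counts of members that passed within series, beside the 1.25% of genes that rose and 1.66% that fell over all 10176. Counts of members above or below 0 stand beside 5063 genes above and 5111 below 0 among all 10176. None of the lists had a member that passed in the fit over all arrays. Of 21 tested genes of cholesterol synthesis and uptake, 6 fell and none rose, and the median difference was −0.26 (all genes 0). The list ran low as a whole, with 19 of 21 members below 0 and 11 lower in all 6 series. Of all tested probe sets, 9.41% moved one way in all 6 series, counting both directions. FDPS, which makes farnesyl diphosphate, read 9.81, 10.22 and 10.49 at 24 h and 9.68, 9.84 and 9.76 at 72 h in the lean line, while fat arrays had 10.99, 10.69 and 10.12 and then 10.34, 9.73 and 9.89. The 72 h arrays were lower within every series, though the hours overlapped, and FDPS fell by 0.51 (SE 0.10, adjusted p = 0.0345). LSS, the cyclase that forms lanosterol, went from 9.47, 9.77 and 10.23 to 9.20, 9.41 and 9.44 in the lean line and from 10.40, 10.04 and 9.48 to 9.88, 9.50 and 9.28 in the fat line. It fell by 0.45 (SE 0.08, adjusted p = 0.0204), although its 3 probe sets ranged from −0.47 to −0.17.

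The other members that fell were FDFT1 (−0.40), which makes squalene, HSD17B7 (−0.50), DHCR7 (−0.39) and SC5D (−0.48), which act in the later steps to cholesterol, with adjusted p of 0.0246 to 0.0355. Among members that did not pass, NSDHL had −0.54 (adjusted p = 0.0633), MVK −0.47 (0.113), INSIG1 −0.31 (0.108) and HMGCS1 −0.26 (0.179). The count of members that fell depended on the series, from 0 without lean replicate 3, fat replicate 1 or fat replicate 2 to 11 without fat replicate 3, while the median stayed between −0.22 and −0.35. It also dropped from 6 to 1 when the moderation was not robust. In control culture over the same hours the median of the list was −0.08 and 1 member, HSD17B7, fell.

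Lists of adipocyte and lipid handling genes had medians from −0.17 to −0.01, with single members that passed in all but the fatty acid synthesis list. Of 17 tested adipocyte genes, FABP4 and CD36 fell and none rose (median −0.17, 11 of 17 below 0). PPARG, the nuclear receptor that drives adipogenesis, had a difference of −0.22 (adjusted p = 0.376), CEBPB −0.30 (0.0616), LPL 0.01 (0.988) and ADIPOQ −0.33 (0.632). CEBPA and PLIN1 were dim and reached the floor on 2 and 3 of the 12 arrays. Of 13 genes of the lipid droplet and triglyceride synthesis, 2 fell: MGLL, which splits monoglycerides (−0.67, SE 0.11, adjusted p = 0.0148), and PLIN2, the droplet coat protein (−0.26, SE 0.05, adjusted p = 0.0218). PLIN2 stayed bright, with means of 11.28 and 11.02, and 1 of its 6 series differed by 0.03 in the other direction. Of 20 fatty acid uptake genes 1 rose, CAV1, the caveolar scaffold (0.34, adjusted p = 0.0388), besides the falls of FABP4 and CD36. That list was evenly split, with 10 members above and 10 below 0 (median −0.02). None of 16 fatty acid synthesis genes passed (median −0.11). Of 21 genes of fatty acid oxidation, ECI2, an isomerase for unsaturated acyl chains, rose (0.25, adjusted p = 0.0252) and CROT, a peroxisomal acyltransferase, fell (−0.32, adjusted p = 0.0143). In control culture none of the adipocyte or fatty acid synthesis genes passed. There 1 lipid droplet, 2 uptake and 1 oxidation gene rose, and none fell.

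The matrix lists held more rises than falls, though RELN, which fell as described above, is not counted in them. In control culture 3 glycoproteins and proteoglycans rose and 3 fell. Of the collagens 3 rose there, as did 3 of the proteases, inhibitors and cross-linkers, and none of these fell. Of 40 glycoproteins and proteoglycans 7 rose and 1 fell (median 0.09). BGN, the small proteoglycan biglycan, read 7.85, 7.18 and 6.31 at 24 h and 8.16, 8.36 and 7.48 at 72 h in the lean line, while fat arrays had 5.93, 6.04 and 7.84 and then 7.42, 7.79 and 8.52. BGN rose by 1.10 (SE 0.16, adjusted p = 0.0119), with series between 0.32 and 1.76 and a spread between arrays that narrowed from 24 to 72 h. SPON2, a secreted spondin, went from 9.71, 9.21 and 8.59 to 10.86, 10.46 and 9.44 in the lean line and from 8.67, 7.56 and 9.40 to 8.95, 8.53 and 11.02 in the fat line, a rise of 1.02 (SE 0.14, adjusted p = 0.0133). TNC, which codes for tenascin, rose by 0.61 (adjusted p = 0.00607), FBN2, a fibrillin, by 0.58 (0.0271), MFAP2, a microfibril protein, by 0.47 (0.0211) and LUM, lumican, by 0.38 (0.0171), while HSPG2 (0.37) rose and SPON1 (−0.27) fell. The probe sets of TNC ran from 0.16 to 0.61. Of 25 collagens 3 rose and none fell: COL8A2 (0.74, adjusted p = 0.0208), COL6A2 (0.46, 0.0111) and COL5A2 (0.19, 0.0468), although the second probe set of COL6A2 gave −0.07. Among 34 matrix proteases, inhibitors and cross-linkers, the protease inhibitors SERPINE2 (0.31, adjusted p = 0.00245) and TIMP2 (0.29, 0.00904) rose. SERPINE2 was tight enough for the hours to stand apart, from 12.26 to 12.56 at 24 h and from 12.60 to 12.91 at 72 h. Leaving out 1 series left between 1 and 10 rises among the glycoproteins and between 0 and 5 among the collagens.

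Signalling genes moved both ways. Of 33 Wnt genes 6 fell and none rose, while the median was 0.02. The falls were the ligands WNT2B (−0.87, SE 0.14, adjusted p = 0.0154) and WNT5A (−0.56, 0.12, 0.0376) and the receptors FZD8 (−0.68), FZD4 (−0.51), ROR1 (−0.32) and FZD1 (−0.29). FZD4 read 8.48, 8.89 and 9.18 at 24 h and 7.80, 8.13 and 8.57 at 72 h in the lean line, against 8.82, 9.34 and 8.74 and then 8.55, 9.18 and 8.15 in the fat line. It was lower at 72 h in each series, by 0.15 to 0.76. Without 1 series, 0 to 8 of the Wnt genes fell. In control culture 8 members fell and none rose, all 6 of these among them.

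Of 43 TGF-beta and BMP genes 3 rose and 4 fell. The rises were in ligands: INHBA, the activin A subunit (0.40, SE 0.04, adjusted p = 0.00245, 0.29 to 0.51 over the series), INHBB (0.59) and TGFB2 (0.26). The falls were ID2, ID4 (−0.61), which like ID2 is a target of BMP signals, SMAD9 (−0.51), a BMP signal transducer, and ACVR2A (−0.36), an activin receptor. Without oleate, 2 members of this list rose and 4 fell over the same hours, and INHBA was higher at 72 h in every control pair. In the IGF and FGF list of 26, IGF1 rose while IGFBP2 and FGFRL1 (−0.43, adjusted p = 0.0224), a receptor-like protein, fell. Control culture gave 2 rises and 2 falls in that list.

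**Figure D3:**
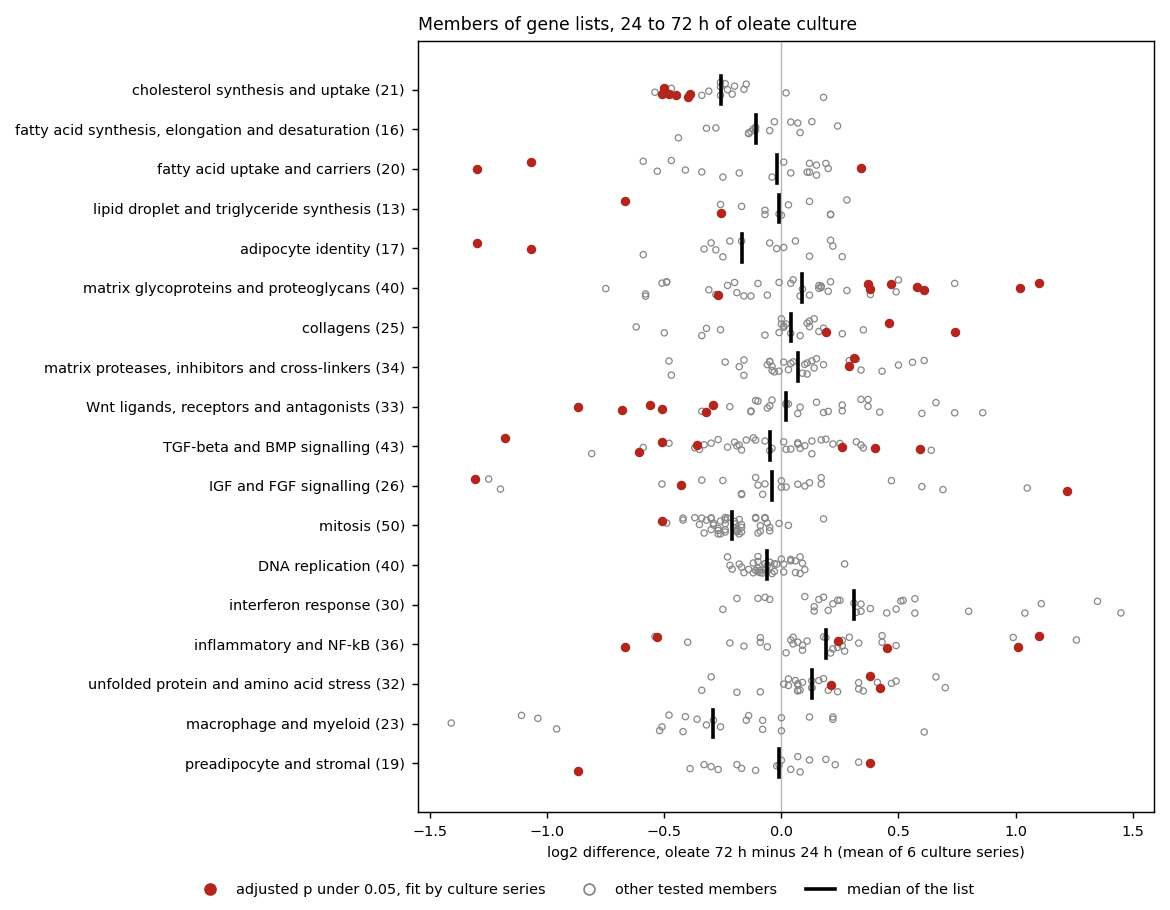
Log2 difference, 72 h minus 24 h (x axis, mean of 6 culture series), of each tested member of 18 gene lists (y axis, number tested in brackets). Red points passed within series and black bars are list medians. The cholesterol list lies to the left (median −0.26), as does mitosis (−0.21), and the interferon list to the right (0.31), with no red point among its 30 members.

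Several lists lay to one side with few or no members that passed. Of 50 mitosis genes 48 were below 0, with a median of −0.21 (lean −0.07, fat −0.39), but only CENPE, a kinetochore motor, fell (−0.51, SE 0.07, adjusted p = 0.0111). Its arrays stood apart, from 8.49 to 8.93 at 24 h and from 8.12 to 8.18 at 72 h. CENPE was lower at 72 h in every control pair too. The mitosis median in control culture was −0.08, and 1 member fell there. None of 40 DNA replication genes passed (median −0.06). CDKN1A, an inhibitor of the cell cycle, rose by 0.38 (adjusted p = 0.0206). It was higher at 72 h in every control pair too, and 4 of the 24 tested cell cycle inhibitors rose in control culture. Among 30 interferon response genes 25 were above 0 and the median was 0.31, and none passed, with IFIT5 at 1.45 (adjusted p = 0.1) and CMPK2 at 1.35 (0.0968). Of these 30, 11 rose in control culture (median 0.51).

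Of 36 inflammatory genes 4 rose and 2 fell: IL8L1, CCL20, IL18 (0.45) and IL8L2 (0.24) rose, and TNFAIP8 (−0.53) and the lipocalin EXFABP (−0.67) fell. The fall of EXFABP was not shared by all series, which ranged from −1.49 to 0.18. Control culture gave 6 rises and 1 fall among the 36 genes, with a median of 0.23 against 0.19 with oleate. In the unfolded protein and amino acid stress list 28 of 32 genes were above 0 (median 0.13), and SEL1L (0.38), ASNS (0.42) and PDIA3 (0.21), which serve protein degradation, asparagine synthesis and protein folding, rose with adjusted p of 0.0147, 0.0256 and 0.0429. SEL1L and PDIA3 had hours that did not overlap, although the 3 probe sets of PDIA3 ranged from −0.30 to 0.21. Without oleate 5 genes of this list rose and none fell (median 0.15). Of 37 genes of the oxidative stress response 29 were below 0 and 8 above (median −0.09). In that list MAFF (0.35) and MAFK (0.24) rose and MGST1 (−0.23) and TALDO1 (−0.19) fell. Other probe sets of TALDO1 rose as far as 0.68. Control culture gave 1 fall and no rise in the oxidative stress list (median −0.05).

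The label of the cells was checked against marker genes, as the mean log2 value of each list on each array. Preadipocyte and stromal markers (19 genes) lay between 7.88 and 8.17 at 24 h and between 7.84 and 8.02 at 72 h, with DCN and ITGB1 above 12 on average at both hours. Of these markers, LUM rose and TCF21, a transcription factor of stromal precursors, fell (−0.87, SE 0.13, adjusted p = 0.0135). TCF21 was lower at 72 h in every control pair too, and 3 of the 19 markers fell in control culture. Adipocyte markers (17 genes) lay between 6.05 and 6.54 at 24 h and between 5.91 and 6.52 at 72 h, lower at 72 h in 5 of 6 series. Macrophage and myeloid markers (23 genes) were present too, at 7.03 to 8.26 at 24 h and 6.89 to 8.05 at 72 h. No macrophage marker passed, yet 18 of 23 were below 0 (median −0.29), among them C1QC (−1.11, adjusted p = 0.0504), C1QB (−1.04, 0.142) and LY86 (−1.41, 0.211), while MRC1 lay at the floor on all 12 arrays. Mesothelial and epithelial markers (9 genes) lay between 5.39 and 6.47 at 24 h and between 4.78 and 6.50 at 72 h, lower at 72 h in 5 of 6 series. Of these 9, 7 were below 0 (median −0.39), and LRRN4 fell (−0.39, adjusted p = 0.0312), while the keratin KRT7 had −0.55 (0.326). Skeletal muscle markers (8 genes, median −0.38) lay between 5.35 and 6.36 and then between 5.30 and 5.75, and none passed. Nor did any endothelial (19 genes), lymphocyte (13), erythroid (7), smooth muscle (19) or bone and cartilage marker (12). The smooth muscle list, which includes contractile genes, was the brightest of all these lists, above the preadipocyte and stromal markers. It lay between 9.64 and 9.92 at 24 h and between 9.28 and 9.86 at 72 h. Control culture gave medians of −0.04 for the macrophage list (1 rise) and −0.07 for the mesothelial list (1 fall). For the skeletal muscle list the control median was −0.16 (1 fall). The part of macrophage, mesothelial or muscle cells in the falls above, KRT24 among them, and in the inflammatory genes was not tested. In such bulk samples fewer cells of a type and less RNA per cell cannot be told apart.

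The lines were compared by testing the difference of their changes. No probe set passed for fat minus lean in the fit over all arrays (limma, 467 with an unadjusted p under 0.05, 2.12%) or within series (1217, 5.52%). In the fit over all arrays, the median half-width of an unadjusted 95% interval for that difference was 0.74. Passing also required the adjustment over all tested probe sets, so differences larger than this could have been missed too. Within series the median standard error of the difference was 0.252, against 0.371 in the fit over all arrays. The genes with the smallest p included SCGN, a calcium-binding protein, with 0.72 for lean and −0.91 for fat cells (difference −1.63, 95% interval −2.48 to −0.77, adjusted p = 1), and DYRK2, a kinase, with −0.51 and 0.18 (difference 0.69, 0.31 to 1.06, adjusted p = 1). PPIL4, TMEM237, MIA3 and ADGRA3 followed with differences of −1.88, −1.89, 0.95 and −0.89 and the same adjusted p. Tested 1 line at a time within series, 182 probe sets (0.825%) passed among lean arrays, 61 (0.277%) up and 121 (0.549%) down. Among fat arrays 6 (0.0272%) passed, 3 (0.0136%) each way. The fit over all arrays (limma) called none for either line, with 892 (4.04%) lean and 814 (3.69%) fat probe sets at an unadjusted p under 0.05. These counts do not compare the lines, for which the difference itself was tested above. The 4 genes that passed in the fat line, named after their values were seen, were APOA1 (−2.02), TAAR1 (1.91), KRT24 (−1.51) and IL6 (0.78, SE 0.06, adjusted p = 0.0165), a cytokine that had 0.20 in the lean line. Over both lines IL6 had 0.49 and did not pass within series (limma, adjusted p = 0.0865). A fit of 1 line rests on 3 series, with fewer residual degrees of freedom than over both lines. The moderation sets much of the error there too. Since the calls over both lines favour probe sets that agree between them, their signs and sizes in each line are no test of agreement.

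Control cultures went through the same hours without oleate, and their change shares no array with the oleate change, although the cells came from the same pools. Within control series 334 of 10176 genes passed (3.28%): 180 rose (1.77%) and 154 fell (1.51%). The fit over all arrays (limma) called none, with 1972 probe sets (8.94%) at an unadjusted p under 0.05. Of the 334 control genes that passed within series, 106 (31.7%) also passed within series in oleate culture, all in the same direction. This is 35.8% of the 296 oleate genes. Of the 296 oleate genes 274 (92.6%) had the same sign in control, against 62.7% of all tested genes. Over the 10176 genes the changes correlated with r = 0.387 (Spearman 0.343), as a description over genes. Of the 24 largest changes, 17 passed in control too, among them 9 of the 11 genes that passed in every fit without 1 series.

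APOA1 fell by 2.08 in control culture (SE 0.12, adjusted p = 5.68e-05), NPR3 by 1.41 (SE 0.09, adjusted p = 6.62e-05), IGFBP2 by 1.22 (SE 0.10, adjusted p = 0.000275) and RELN by 1.00 (SE 0.09, adjusted p = 0.00103). DIO2 rose by 1.12, TAAR1 by 1.07 and IGF1 by 0.81 without oleate (adjusted p 0.00733, 0.0149 and 0.027). The values of APOA1, NPR3, IGFBP2, RELN and DIO2 lay close to those in oleate culture. TAAR1 and IGF1 rose less than with oleate (1.54 and 1.22). For none of the 24 genes did the oleate change minus the control change pass within series (limma, adjusted p 0.184 to 0.98). For FABP4 the control difference was −0.40 (SE 0.19, adjusted p = 0.321), against the fall of 1.30 with oleate, and the 95% interval for the difference between these changes was −1.50 to −0.30 within series, with an adjusted p of 0.439. CD36 had −0.32 in control (adjusted p = 0.513) and a difference of −0.76 (−1.46 to −0.05, adjusted p = 0.572). C2orf40 had −0.84 (adjusted p = 0.336).

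Over all probe sets, none passed for the oleate change minus the control change, in the fit over all arrays (limma, 690 with an unadjusted p under 0.05, 3.13%) or within series (1856, 8.41%). The smallest p in the fit over all arrays belonged to SLC16A9, a carrier of the monocarboxylate family, with −0.65 in oleate and 0.61 in control culture (difference −1.26, 95% interval −1.94 to −0.58, adjusted p = 1). AGAP3 (0.59), G6PC2 (−0.85), ALPPL (1.40), RNF141 (−0.47) and MAP2K2 (0.35) came next, each with an adjusted p of 1.

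**Figure D4:**
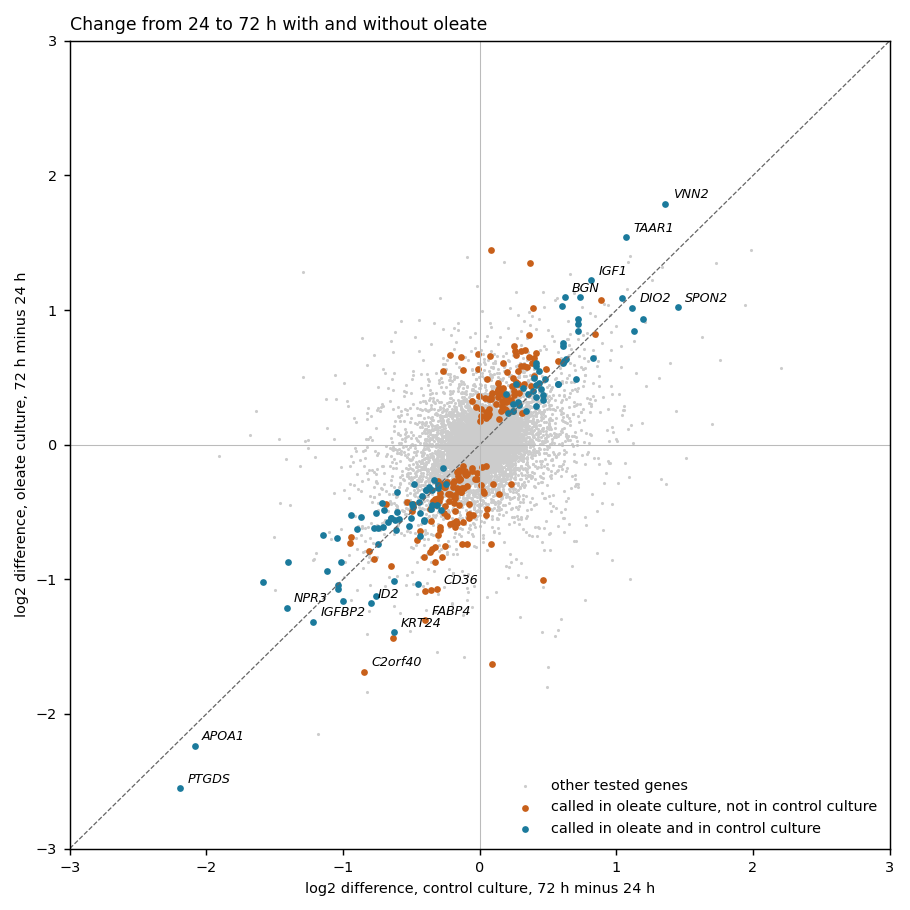
Log2 difference, 72 h minus 24 h, in oleate culture (y axis) against control culture (x axis) for 10176 genes, with the dashed line marking equal change. The 106 genes that passed in both (blue) lie in the lower left and upper right, near the line for APOA1 (−2.24 and −2.08), while FABP4 (−1.30 and −0.40) and CD36 (−1.07 and −0.32) lie off it.

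The change from 24 to 72 h was also set beside the neighbouring hours, which share arrays with it. APOA1 went from 10.56 ± 1.02 (SD, n = 6) at 12 h through 9.98 ± 1.07 at 24 h and 7.75 ± 1.19 at 72 h to 5.47 ± 1.22 at 120 h. IGFBP2, RELN and NPR3 were likewise lower at 120 h than at 72 h, by −1.45, −1.57 and −0.96, and TAAR1 was higher by 1.19. FABP4 had 10.49 ± 0.96 at 0 h, 11.30 ± 0.51 at 12 h, 10.81 ± 0.71 at 24 h, 9.51 ± 1.01 at 72 h and 8.99 ± 0.93 at 120 h. FABP4 was thus highest at 12 h of oleate culture and below its 0 h mean at 72 h. FDPS had the same early peak, with 10.18 ± 0.21 at 0 h, 11.08 ± 0.14 at 12 h, 10.39 ± 0.42 at 24 h and 9.87 ± 0.24 at 72 h. All 6 cholesterol genes that fell from 24 to 72 h had been lower at 24 h than at 12 h, by −0.70 to −0.34, and had −0.39 to −0.12 from 72 to 120 h. PLIN2, by comparison, had 10.13 ± 0.36 at 0 h and held 11.63 ± 0.32, 11.28 ± 0.53, 11.02 ± 0.58 and 11.14 ± 0.61 at 12, 24, 72 and 120 h. BGN was highest at 72 h (7.96 ± 0.46), between 6.86 ± 0.88 at 24 h and 7.49 ± 0.87 at 120 h. No test was made of these courses.

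**Figure D5:**
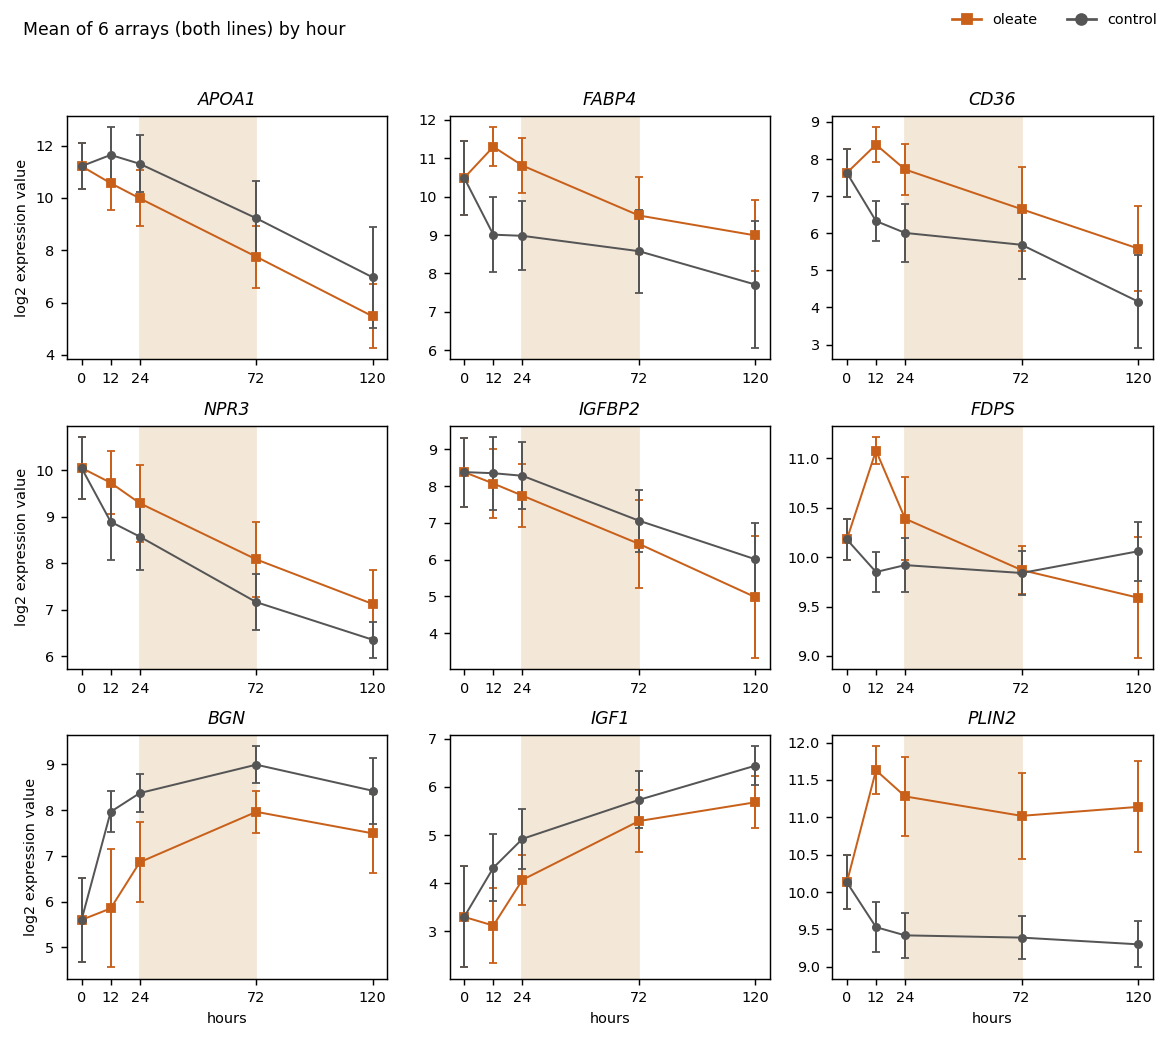
Mean log2 expression value (y axis) of 9 genes by hour (x axis) in oleate (orange squares) and control culture (grey circles), with bars of 1 SD over 6 arrays (both lines) and the 24 to 72 h interval shaded. FABP4 (11.30 at 12 h) and FDPS (11.08 at 12 h) peak before the shaded interval in oleate culture and APOA1 declines across it with and without oleate.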

How the data were processed

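The authors deposited a single value for each probe set and array. Per the submitters' processing notes MAS5 was used, with no version or role given. No source states the unit of the deposited values: log2 was assumed because they span −5.23 to 13.51 with an identical median of 4.17 on each array, and sorted values of any pair of arrays differed by at most 0.0615. The number of arrays limits the precision.

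Values were floored at 1.613 (20th percentile), and 22060 of 38535 probe sets were tested, those whose 3 arrays in some group all exceeded the 50th percentile. A further 96 control probe sets were fitted separately, over all arrays and not within series. Of all probe sets, 27178 named 1 gene in the platform annotation, 177 several and 11180 none, and 26863 matched a current RefSeq gene ID. Each gene is represented by its brightest tested probe set, by the mean of the 66 arrays. No sequences or coordinates were used.

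Models were fitted with limma 3.58.1 in R 4.3.3 (statmod 1.5.0, data.table version 1.17.8), with trended, robust moderation. The designed comparison used all 66 arrays, 22 group means and 44 residual degrees of freedom. The alternative took line and replicate number as a fixed block on the 12 arrays (4 residual degrees of freedom, median prior 6.09). Replicate numbers were taken to pair the samples because residuals of same-numbered 24 h and 72 h oleate arrays correlated in all 6 pairs (0.207 to 0.358, against −0.225 to 0.036 in 12 differently numbered pairs). Control arrays gave 0.138 to 0.325 against −0.223 to −0.0199. Deviations from a group mean cancel within the group, so positive values in same-numbered pairs make the others negative on average. The values of differently numbered pairs are therefore no separate support for the pairing. The labels do not state this pairing. The block fit replaced the designed fit as the basis for most named genes because it moved the count of calls by over 1.5 times.

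The rule for named genes took, in the designed fit, the 12 largest rises and falls with no array at the floor and a single named symbol, and up to 4 called members per list; where no gene passed, it took the 6 with the smallest p. As few genes passed, the same rule was added for the block fit, with up to 6 members per list and, for the 24 leading genes, all 6 series moving one way. The members, the 35 lists and the added rule were chosen with earlier results of these data known. Alternatives were other normalization, floor, filter, moderation, array weights, probe set rule, block and left-out arrays. Oleate and control arrays carry array names of different styles in the labels, so levels in oleate and control culture also differ in that respect.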

Additional observations from a re-analysis of the deposited data

How the results depend on the processing

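The count of 4 probe sets called between 24 and 72 h of oleate culture in the designed fit became 0 without the filter on dim probe sets, 0 with only the 4 groups of the comparison, 0 without trended and robust moderation, 48 with array weights, 28 with a random replicate block and 505 with a fixed replicate block. Leaving out 1 array gave 0 to 7: 7 without lean 24 h replicate 1 or fat 24 h replicate 3, 1 without lean 24 h replicate 2 or fat 24 h replicate 1, and 0 without lean 24 h replicate 3, fat 24 h replicate 2, any lean 72 h array or fat 72 h replicate 3. In the lean line the count of 0 became 1 without the filter, 20 with array weights, 2 with the random and 182 with the fixed block, and 0 to 1 without 1 array (1 without 24 h replicate 1). In the fat line 0 became 1 without the filter, 1 with array weights, 2 with the random and 6 with the fixed block, and 1 to 2 without 1 array. Fat minus lean gave 0 to 1 without 1 array (1 without lean 24 h replicate 1). In control culture 0 became 1 without the filter, 3 with a stricter filter, 6 with only the groups compared, 155 with array weights, 87 with the random and 558 with the fixed block, and 0 to 43 without 1 array (43 without fat 72 h replicate 1, 29 without lean 24 h replicate 3, 7 without lean 72 h replicate 1, 3 without fat 24 h replicate 3 and 2 without fat 72 h replicate 3). The oleate change minus the control change gave 0 in all 35 settings. With the fixed replicate block, alternatives chosen after seeing the data gave 76 without the filter, 280 with a trend but no robust moderation and 2 with neither, and 321, 185 and 52 without lean series 1, 2 and 3 and 276, 86 and 893 without fat series 1, 2 and 3. The floor and a stricter filter kept that count within 1.5 times. Other normalization left it at 505 but could hardly have moved it, since the deposited arrays already shared nearly the same sorted values. COL5A2 in the designed fit ranged from −0.03 (without lean 24 h replicate 1) to 0.40 when 1 array was left out, and TALDO1 turned to 0.09 as a mean over its probe sets. Of the other single-gene values under alternatives, 2059 kept the direction and threshold side of the designed fit, 88 newly passed and 45 no longer passed. The 4 probe sets that passed in the designed fit were named separately, so the next count does not show how many calls the fits share. None of the other 79 genes, named for a call within series, passed in the designed fit. For these a kept side means that a missing call stayed missing, and the fixed block is itself among the alternatives. Such counts do not measure how firm the rises and falls within series are. The cause of these shifts was not tested. Limits are the 3 arrays per group, the unknown origin of replicates, the assumed log2 scale and the 4 residual degrees of freedom of the block fit, where the moderation sets much of the error.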
